A study of Mus musculus with 7 samples.

Results

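The H3K9me3 peaks of immortalised mouse embryonic fibroblasts (iMEFs) partly lay in dense groups: 590 runs of at least 4 closely spaced peaks were found among the 14644 chains into which the autosomal WT peak list could be divided. A chain was built by joining neighbouring peaks separated by a gap of at most 5000 bp, on chromosomes 1 to 19, and a chain of at least 4 peaks is called a cluster here. The 590 clusters held 3600 of the 21957 autosomal WT peaks, which is 16.4% of that list. The remaining chains were 10541 single peaks, 2723 pairs and 790 triples. Because WT peak positions chose the clusters, their number, spacing and span are descriptions, whereas the KO peaks inside them were not used in the choice.

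The cells are Setdb1 cKO iMEFs, a conditional knockout line in which 4-hydroxytamoxifen (4OHT) deletes Setdb1. Untreated cells (WT, no treatment) were set beside cells of the same line harvested on day 7 after 4OHT, which was present for the first 4 days (KO). Both groups therefore carry the conditional allele, the line was recloned from single cells, and each group is 1 library of H3K9me3 ChIP with the ab8898 antibody. With 1 library a group there is no replicate check and no p-value, and every 95% Wilson interval below covers counting error only. The peak lists carry no measure of the amount of Setdb1, so the deletion itself was not checked here.

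H3K9me3 is a histone mark of silent chromatin. Setdb1 is a histone methyltransferase that places it, whereas the Suv39h enzymes maintain much of the mark at pericentromeric satellite repeats. Setdb1 can be recruited through Trim28 by KRAB zinc-finger proteins that recognise endogenous retroviruses (ERVs) and other sequences. For the VL30 family of ERVs in MEFs, however, the study concluded that Trim28 was mostly not needed to keep them silent. In differentiated cells the mark is also known on the 3′ exons of zinc-finger genes, on imprinted regions and on repeat arrays.

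The sequences under the clusters were of several kinds, and a few are shown because the KO results below differed between them. For the first set, the 31 bases present in the most peaks of a named cluster are in capitals, with 15 flanking bases on each side in lower case, on the plus strand of mm9. They show tandem repetition inside a cluster.
chr9:3000397-3000457: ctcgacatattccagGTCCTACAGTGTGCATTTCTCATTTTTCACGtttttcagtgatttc
chr10:7229386-7229446: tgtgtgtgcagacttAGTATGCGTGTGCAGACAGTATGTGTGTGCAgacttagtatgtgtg
chr17:3014624-3014684: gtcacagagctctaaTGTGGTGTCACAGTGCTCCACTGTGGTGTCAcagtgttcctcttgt
The chromosome 9 stretch was in 31 of the 32 peaks of its cluster and occurred 85 times in the span. The chromosome 10 stretch was in 8 of 8 peaks and occurred 29 times, and the chromosome 17 stretch was in 5 of 25 peaks and occurred 6 times.

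For the second set, the middle 150 bases of the highest-scoring WT peak of 3 named clusters are shown, again on the plus strand of mm9. The capitals mark matches to CANACNGGNGANAANCCNTA, in which N is any base, searched on both strands. These letters cover the codons of the conserved linker that joins neighbouring C2H2 zinc fingers.
chr4:146553360-146553509: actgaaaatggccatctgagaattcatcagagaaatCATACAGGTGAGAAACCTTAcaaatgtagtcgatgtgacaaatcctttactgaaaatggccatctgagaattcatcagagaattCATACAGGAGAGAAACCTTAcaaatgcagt
chr10:81207936-81208085: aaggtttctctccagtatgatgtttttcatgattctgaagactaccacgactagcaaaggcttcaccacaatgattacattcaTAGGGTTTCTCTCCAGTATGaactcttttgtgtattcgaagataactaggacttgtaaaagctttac
chr8:19760041-19760190: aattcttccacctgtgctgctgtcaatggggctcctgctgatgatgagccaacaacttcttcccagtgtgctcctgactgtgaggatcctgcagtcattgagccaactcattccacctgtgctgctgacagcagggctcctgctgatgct
The chromosome 4 window held 2 matches and overlapped an annotated exon. The chromosome 10 window held 1 match and overlapped no annotated exon, and the chromosome 8 window held 0. The chromosome 4 and chromosome 10 peaks overlapped no KO peak, whereas the chromosome 8 peak did.

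The clusters were short and dense. Their spans ran from 1041 to 63498 bp with a median of 5541 bp, and 480 of 590 were shorter than 10 kb while 25 exceeded 20 kb. The median cluster had 5 peaks, 282 had exactly 4, 63 had at least 10 and the largest had 50. Peaks covered 25.9% of the 4.26 Mb inside all spans, and the median gap between neighbours was 539 bp. At the edge of the rule, 158 gaps between WT peaks measured 4500 to 5000 bp and 125 measured 5000 to 5500 bp.

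Peak height was given as pileup, the number of overlapping fragments at the peak, and as fold enrichment over the local background. Clustered WT peaks had a median pileup of 11 (quartiles 10 and 15), and other WT peaks had a median of 10 (quartiles 9 and 11). The fold enrichment had a median of 4.63 in both sets. The clustered peaks were wider, at a median of 191 bp against 128 bp, and 165 of them exceeded 1 kb. The local background that the caller used, recovered as the pileup plus 1 divided by the fold, less 1, was over 3 at 612 clustered peaks, or 17%, against 1.24% of other WT peaks. High local background was therefore more frequent within clusters, and its part in the KO results below was not tested apart from the split by background.

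Most clusters held no KO peak. A KO peak lay wholly inside 149 of 590 clusters, or 25.3% (95% Wilson interval 21.9% to 28.9%), against 2.28% of WT chains of any size, and 441 clusters had none. The KO list was much shorter, with 3668 autosomal peaks, of which 586 (16.0%) lay inside clusters. That gave 16.3 KO peaks per 100 WT peaks inside clusters. KO peaks lying outside clusters came to 16.8 per 100 WT peaks outside, but only 217 of those lay within a smaller WT chain, or 1.18 per 100.

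Individual WT peaks overlapped a KO peak more often inside clusters than outside. Of the 3600 clustered peaks, 322 had a KO peak over at least 1 of their bases, or 8.94% (8.06% to 9.92%), against 1.04% (0.899% to 1.19%) of the 18357 others and 2.33% of the whole list. Allowing 1000 bp between the peaks gave 20.5% in clusters, 2.87% outside and 5.76% over the whole list. By cluster, 116 of 590 held such an overlapped peak, or 19.7% (16.7% to 23.1%), against 2.05% of WT chains of any size. Even within clusters, then, the large majority of WT peaks had no KO peak over them. The 586 KO peaks inside clusters were split between 340 that overlapped a WT peak and 246 that fell in the gaps between WT peaks.

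The share with a KO peak rose with the number of WT peaks in the chain. It was 0.436% for single peaks, 2.90% for pairs and 7.59% (60 of 790; 5.95% to 9.65%) for triples, the chains just below the cut. Chains of exactly 4, just above it, gave 13.5% (38 of 282; 9.98% to 18.0%). The share then reached 23.5% at 5 peaks, 31.5% at 6 to 9, 59.0% at 10 to 14 and 83.3% (20 of 24; 64.1% to 93.3%) at 15 or more. Larger chains are also longer, with a median span of 2731 bp for triples and 3506.5 bp for chains of 4, so a KO peak has more room to fall inside. The overlap of single WT peaks, which does not depend on the span, rose as well, from 0.787% for lone peaks to 2.22% in chains of 4 and 24.2% in chains of 15 or more.

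**Figure D1:**
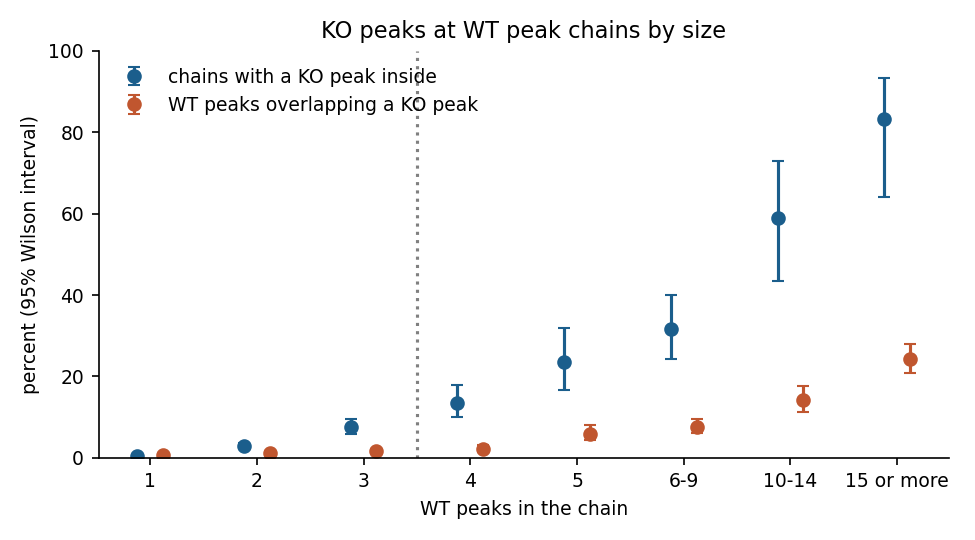
Percent of WT chains with a KO peak wholly inside (blue) and percent of WT peaks overlapping a KO peak (orange), on the y axis, by the number of WT peaks in the chain, on the x axis. Bars are 95% Wilson intervals and the dotted line marks the cut at 4 peaks: both shares are lowest for single peaks (0.436% and 0.787%) and highest at 15 or more (83.3% and 24.2%).

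KO peaks were concentrated in few clusters. The 10 clusters with the most KO peaks held 200 of the 586, or 34.1%, while 66 clusters held a single KO peak and 38 held at least 5. In 6 clusters the KO list had more peaks than the WT list, and in all of these the median WT background was at least 4.60. At the other end, 20 clusters of 10 or more WT peaks had no KO peak, with a median background between 1.16 and 2.12. The highest-scoring WT peak overlapped a KO peak in 54 of 590 clusters, or 9.15% (7.08% to 11.8%). The other 3010 clustered peaks, pooled, gave 8.90% (7.94% to 9.97%). The first share counts each cluster once, whereas the pooled share is weighted to large clusters, where overlap was more frequent. They were therefore not compared.

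**Figure D2:**
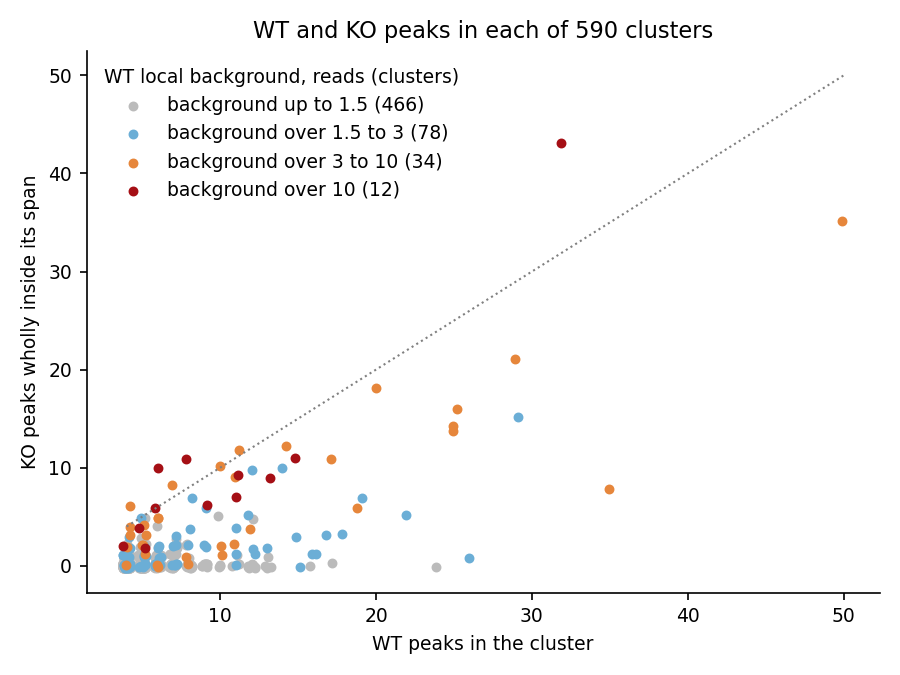
Each point is a cluster, with its WT peaks on the x axis and the KO peaks wholly inside it on the y axis, shifted at random by up to 0.25 to separate points, and coloured by its median WT local background in reads. The dotted line marks equal numbers: most of the 590 points lie at or near 0 on the y axis, and the clusters above the line are those of high background.

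The share of clusters with a KO peak rose with local background. Among the 466 clusters with a median background of at most 1.5, 62 had a KO peak, or 13.3% (10.5% to 16.7%), with 3.74 KO peaks per 100 WT peaks. The share was 57.7% (45 of 78) at a background over 1.5 and up to 3, 88.2% (30 of 34) over 3 and up to 10, and 100% (12 of 12) above 10, where there were 96.0 KO peaks per 100 WT peaks. The order was the same among clusters of exactly 4 peaks, with 9.52%, 37.5%, 80.0% and 100% in the same 4 classes, the last from 1 cluster. The same gradient was seen at WT peaks outside clusters, where overlap rose from 0.725% to 45.7%. In the 54 clusters with at least 3 KO peaks, the KO background was a median of 1.02 times the WT background (quartiles 0.900 and 1.28).

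**Figure D3:**
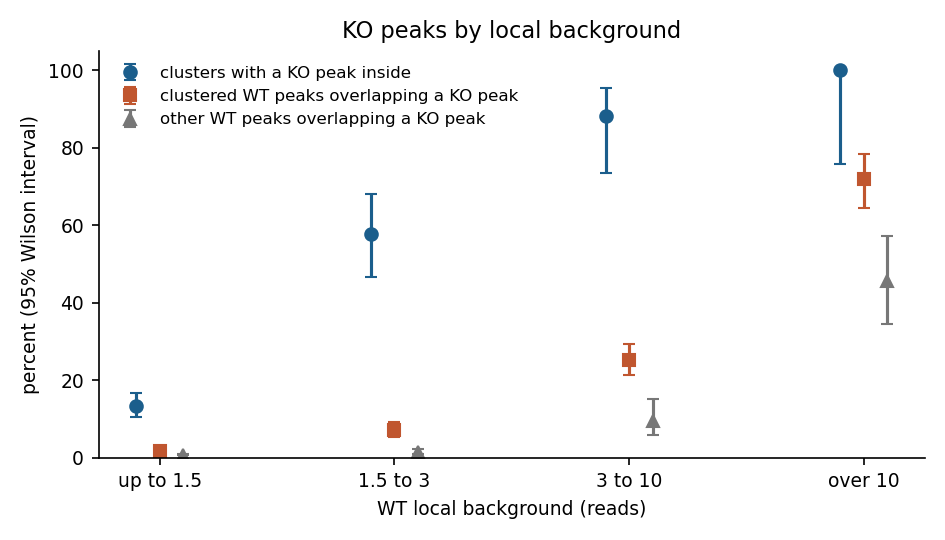
Percent of clusters with a KO peak inside (circles), of clustered WT peaks overlapping a KO peak (squares) and of other WT peaks overlapping a KO peak (triangles), on the y axis, by WT local background in reads, on the x axis. Bars are 95% Wilson intervals: the circles climb from 13.3% at a background of up to 1.5 to 100% above 10.

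At low background the overlap was still higher at clustered peaks than at other WT peaks. Clustered peaks with a background of at most 1.5 overlapped a KO peak in 42 of 2273 cases, or 1.85% (1.37% to 2.49%), against 0.725% (0.607% to 0.866%) of 16554 other WT peaks of that background. The intervals did not overlap, but the difference was much smaller than over all peaks. These intervals treat neighbouring peaks of a cluster as independent. Clustered peaks were also wider over all backgrounds (median 191 bp against 128 bp), and the part of width in the difference was not tested.

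The largest cluster lay on chromosome 8 at chr8:19715635-19779133 and was also the longest, with 50 WT and 35 KO peaks over 63.5 kb. WT pileups ran from 16 to 83 with a median of 26.5, and KO pileups ran from 17 to 81 with a median of 28.0. The heights of the 2 lists covered nearly the same range, and a KO peak lay over 20 of the 50 WT peaks. Its span overlaps the predicted coding gene 4930467E23Rik, and its peaks had a median of 3.5 copies of their 31-base stretches in the genome. Neighbouring clusters also held many KO peaks: chr8:19897941-19931126 held 29 WT and 21 KO peaks, and chr8:19940370-19972903, over Gm15319, held 20 and 18. Farther along chromosome 8, chr8:71941618-71975639, held 25 WT and 16 KO peaks and overlapped no annotated gene.

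The cluster with the most KO peaks, chr9:3000033-3038311, lay at the very start of the assembled chromosome 9 sequence, which in the mouse is the centromere end. It held 32 WT and 43 KO peaks. WT pileups were all between 134 and 140 and KO pileups between 93 and 130, and a KO peak lay over 26 of the 32 WT peaks. The local background had a median of 85.5 for WT peaks and 72.0 for KO peaks. The fold over it had medians of 1.63 and 1.75. However, 31 of the 32 WT peaks stood at exactly 140 and 18 of the 43 KO peaks at exactly 130, the highest pileup of each list, so heights and folds at this locus may be capped and were not compared. This is the tandem repeat printed above, and its 12 overlapping coding models, among them Gm10718, Gm10720 and Gm10722, are predicted genes.

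Clusters at other centromere ends also held KO peaks. Within the first 4 Mb, 20 clusters on 13 chromosomes held 189 WT and 110 KO peaks, the chromosome 9 cluster included. That cluster alone held 32 of these WT and 43 of these KO peaks. A KO peak lay inside 14 of the 20, or 70.0% (48.1% to 85.5%). The chr3:3000220-3032365 cluster had 35 WT and 8 KO peaks, with WT pileups of 14 to 72 and KO pileups of 16 to 65. The chr17:3013654-3038901 cluster had 25 WT and 14 KO peaks, with WT pileups of 19 to 109 and KO pileups of 19 to 98. Both overlap no coding gene, and their local backgrounds had medians of 3.94 and 9.20 in WT. The median background over all 20 clusters was 2.96, against 1.29 over all 590.

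The highest score of any clustered WT peak was a −log10 q of 45.8, in chr10:7229400-7237120. All 8 WT peaks there overlapped a KO peak, and 11 KO peaks lay in the span. WT pileups ran from 102 to 118 and KO pileups from 56 to 76, so this locus had WT and KO heights that did not overlap although peaks were called in both. The local background was nearly the same, 23.3 in WT and 21.7 in KO, while the fold over background had a median of 4.37 for WT peaks and 2.99 for KO peaks.

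Repeated loci with coding or small RNA genes also held KO peaks. The chr7:67003006-67049319 cluster covers a tandem array of 18 annotated SNORD116 genes, small nucleolar RNAs of the imprinted region linked to Prader-Willi syndrome in humans. It held 29 WT and 15 KO peaks, with WT pileups of 12 to 30 and KO pileups of 13 to 33. The chr1:85083539-85132541 cluster, over C130026I21Rik and A530032D15Rik, held 25 WT and 14 KO peaks, 5 WT peaks being overlapped. Farther along the same chromosome, from position 87473474, lie the Sp100 family genes, which encode nuclear body proteins that read chromatin and respond to interferon.

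The Sp110 and Sp140 genes were both in clusters. Sp110 (chr1:87473474-87495392) overlapped 6 WT and 4 KO peaks, and Sp140 (chr1:87496953-87541612) overlapped 14 WT and 18 KO peaks, whereas Sp100 (chr1:87546563-87606573) overlapped 1 WT and 2 KO peaks and no cluster. The cluster chr1:87483618-87512123, which overlaps Sp110 and Sp140, had 14 WT and 12 KO peaks, with WT pileups of 17 to 26 and KO pileups of 20 to 35. Only 3 of its WT peaks shared a base with a KO peak, so most KO peaks there fell between the WT peaks. Local background there was 5.46 in WT and 6.49 in KO. Another cluster over Sp140, chr1:87517460-87521589, had 4 WT and 0 KO peaks at a WT background of 6.26. Both clusters over these genes were chosen after their values were seen.

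**Figure D4:**
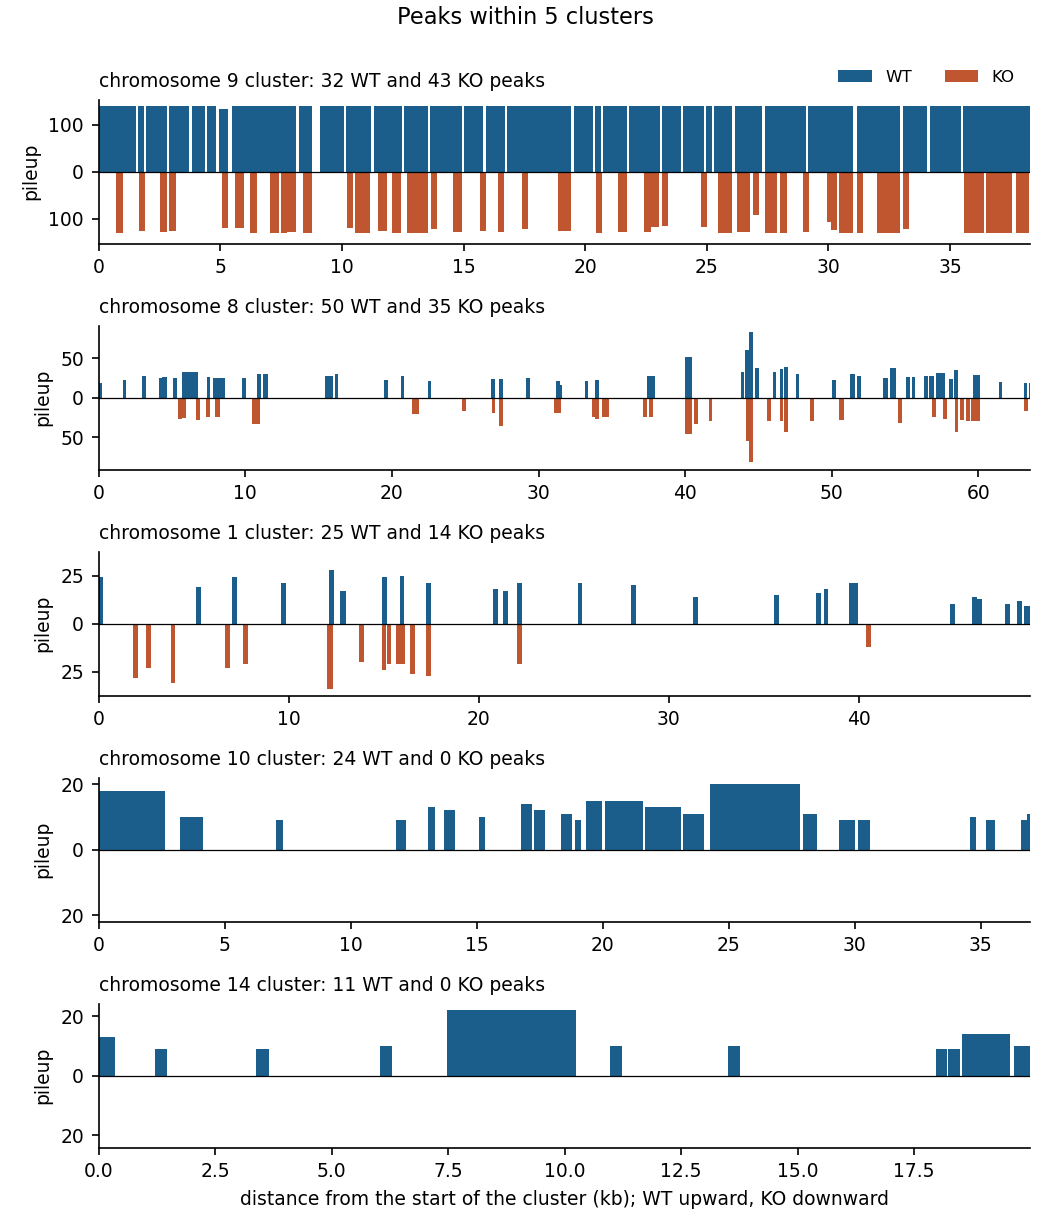
WT peaks (blue, upward) and KO peaks (orange, downward) in 5 clusters, with distance from the cluster start in kb on the x axis and peak pileup on the y axis, which has its own scale in each panel. Peaks narrower than 0.25 kb are drawn 0.25 kb wide. The chromosome 9, 8 and 1 clusters hold 43, 35 and 14 KO peaks, and the chromosome 10 and 14 clusters hold 0.

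Some large clusters had no KO peak or a single KO peak. Of the 20 clusters with 10 or more WT peaks and no KO peak, 16 carried the zinc-finger linker and 4 did not. The chr10:81181971-81218914 cluster, over the predicted gene Gm3055, held 24 WT peaks with pileups of 9 to 20 and 0 KO peaks, and its span held 26 linker matches. The chr4:146546600-146576874 cluster, over Gm13139, held 26 WT peaks with pileups of 10 to 31 and 1 KO peak of pileup 13, and its span held 10 matches. A further cluster, chosen after its values were seen, was chr10:81354762-81372277 over Zfp781, with 17 WT peaks, 0 KO peaks and 16 matches. The clusters named above with many KO peaks, on chromosomes 1, 7, 8, 9 and 17, held 0 matches.

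The linker was far more frequent at clustered peaks than elsewhere. In windows of 300 bases around the middle of each peak, it was found at 190 of 3600 clustered WT peaks, or 5.28% (4.59% to 6.06%), against 0.588% (0.488% to 0.710%) of other WT peaks, 0.545% of KO peaks and 0.0284% of all gapless autosomal windows of that length. In all, 140 of 590 spans (23.7%) held at least 1 match, with 1441 matches between them. A match is a sequence description and does not show that a gene there is expressed. The linker search itself was chosen after values of these data were seen. Only 28 of the 140 overlapped a gene named Zfp, and 60 lay within 100 kb of such a gene.

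Clusters with the linker had fewer KO peaks for their size in the pooled count, but not on chromosome 4. They held 1052 WT and 64 KO peaks, or 6.08 per 100, against 20.5 per 100 in the 450 clusters without it. A KO peak lay inside 18.6% (13.0% to 25.8%) of them and 27.3% (23.4% to 31.6%) of the others, intervals that overlap. At a background of at most 1.5 the shares were 7.27% (3.73% to 13.7%; 8 of 110) and 15.2% (11.8% to 19.3%; 54 of 356), and these intervals also overlap. Of the 26 linker clusters with a KO peak, 16 were on chromosome 4, where 16 of 20 linker clusters (80.0%; 58.4% to 91.9%) and 12 of 29 others (41.4%; 25.5% to 59.3%) had one, at median backgrounds of 1.83 and 1.59. On the other chromosomes, a split made after the values were seen, the shares were 8.33% (10 of 120; 4.59% to 14.7%) with the linker and 26.4% (111 of 421; 22.4% to 30.8%) without. At a background of at most 1.5 over all chromosomes, KO peaks came to 2.15 per 100 WT peaks with the linker and 4.45 without. Peaks with a match in their window were wider, at a median of 494 bp against 182 bp for clustered peaks without. A KO peak overlapped 7 of the 190 with a match, or 3.68% (1.80% to 7.41%). The share was 9.24% (315 of 3410; 8.31% to 10.3%) for clustered peaks without a match. These shares were not split by background, and their intervals treat neighbouring peaks as independent.

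By gene name, Zfp genes were the family with the most clusters. Of 367 Zfp genes, 30 (8.17%) overlapped a cluster, against 0.846% of all 34653 annotated autosomal genes, and their 33 clusters held 216 WT and 6 KO peaks. A KO peak lay inside 3 of the 33, or 9.09% (3.14% to 23.6%), below the 25.3% of all clusters, but the interval includes the 13.3% of clusters with a background of at most 1.5. The median background of the 33 was 1.29. Peaks of these clusters met Zfp genes 141 times. When each gene was cut into 3 equal lengths, 89 of these (63.1%) had their middle in the final segment. The middle segment had 32 and the first had 20. Zfp942 and Zfp944, chosen after their values were seen, carried 9 and 6 such peaks, all in the final segment, and none overlapped a KO peak. The genes varied, however: Zfp81, with the most peaks, had 4 of 12 in the final segment, Zfp97 had 4 of 9 and Zfp943 had 0 of 4. Of the 23 gene families counted, 17 had no member in a cluster, among them the Vmn1r, Defa, Mup and Hist1 genes. Most of these 17 families have few genes, and at the 0.846% of all genes a small family would usually have none. The absence therefore does not set the small families apart from other genes, and it was not tested for Vmn1r, the largest of them. The 1243 olfactory receptor genes (Olfr) had 2 members in clusters.

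Clusters were themselves grouped along the genome. Of the 349 windows of 1 Mb with a cluster, 38 held at least 3, and these 38 held 230 clusters (39.0%). The window with the most was chromosome 13, 66000001 to 67000000, with 20 clusters, 147 WT and 8 KO peaks. On chromosome 10, 81000001 to 82000000 had 18 clusters with 149 WT peaks and 1 KO peak. On chromosome 17, windows starting at 17000001 and 22000001 held 13 and 11 clusters, with 88 and 59 WT peaks and 0 KO peaks in either. Chromosome 4 windows as dense as these held many more KO peaks: the one starting at 146000001 had 17 clusters, 14 of them with a KO peak, with 160 WT peaks and 30 KO peaks, and its background had a median of 1.97. The one starting at 145000001 had 15 clusters, 9 with a KO peak, with 138 WT peaks, 24 KO peaks and a median background of 1.69. The chromosome 1 window starting at 85000001 also held many, with 6 clusters, 69 WT and 47 KO peaks, and its median background was 3.83, against 1.31 and 1.16 in the chromosome 17 windows.

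The chromosomes differed in the same way. Chromosome 17 had the highest density, at 0.609 clusters per Mb, but only 4 of its 58 clusters had a KO peak. Chromosome 12 had 2 of 29, chromosome 6 had 0 of 9, and chromosome 4 had 28 of 49. Chromosome 8 held 160 of the KO peaks, the most of any chromosome, in 19 of its 52 clusters.

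Clustered peaks came from sequence of few copies. Counting each 31-base stretch of a peak across the genome, the median copy number was 4 (quartiles 1 and 17.5) for clustered WT peaks and 57 (quartiles 1 and 2900) for other WT peaks. Peaks with over 1000 copies were 9.67% (8.74% to 10.7%) of clustered peaks and 38.6% (37.9% to 39.3%) of the others, and those with over 1 and up to 10 copies were 39.5% and 10.8%. The share of single-copy peaks was nearly the same, 29.9% (28.4% to 31.4%) of clustered peaks and 29.7% (29.0% to 30.3%) of the others. The copy number bears on the measurement, since reads with several valid positions were assigned to a randomly chosen 1 of them. By copy number of the cluster, a KO peak lay inside 21.5% (35 of 163) at 1 copy, 36.4% (79 of 217) at over 1 and up to 10, and 12.5% (10 of 80) above 1000. At a background of at most 1.5 these shares were 11.7%, 13.3% and 12.7%, with overlapping intervals.

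Many clusters shared sequence with each other. In 327 of 590, the 31-base stretches shared with another cluster made up at least 20% of those of the smaller cluster of the pair. A KO peak lay inside 93 of these (28.4%), against 56 of 263 (21.3%) clusters without such a partner. Sets were built by joining clusters linked through such pairs, so the members of a set need not all share sequence with each other. The largest set confined to a single chromosome was 17 clusters on chromosome 12 between 18031305 and 24902853, with 106 WT and 0 KO peaks. A set of 6 on chromosome 17 between 17170864 and 17408626 had 50 WT and 0 KO peaks. The median backgrounds of these sets were low, at 1.16 and 1.36. Over all clusters with a background of at most 1.5, 13.3% had a KO peak, with 3.74 KO peaks per 100 WT peaks. Neither set was tested against these shares. The largest set of all was 245 clusters over 19 chromosomes with 1589 WT and 345 KO peaks, and 80 of these clusters had a KO peak.

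Internal segments of full-length ERVs, at the positions the study listed for the families named below, accounted for few clusters. Only 32 of 590 (5.42%) overlapped such a segment, with 179 WT and 24 KO peaks. The flanking long terminal repeats, other copies and other ERV families were not counted, and IAPEz was limited to copies flanked by IAPLTR1a. The share of clusters on ERVs of any kind was therefore not measured. A KO peak lay inside 10 of the 32, or 31.3% (18.0% to 48.6%), an interval that includes the 25.3% of all clusters. MMERVK10C, a retrovirus family controlled by Setdb1 in embryonic stem cells, had 161 autosomal elements, of which 134 carried a WT peak and 19 lay in a cluster. IAPEz had 554 elements, 276 with a WT peak and 11 in a cluster. RLTR4 and RLTR6 had 1 element each in a cluster, of 50 and 149, and MMVL30 had 0 of 81.

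A further kind of cluster, picked out after the values were seen, lay on GC-rich single-copy sequence at or near genes of development. The rule taken was a median of 1 copy, a GC content of at least 45%, a background of at most 1.5 and a coding gene within 10 kb, which gave 30 clusters with 162 WT and 3 KO peaks. Their GC content, bounded below by the rule, ran from 45.8% to 58.6%. Their CpG density had a median of 31.3 per kb, against 6.49 in the other clusters. That contrast is not separate from the choice by GC content. Most of the genes encode transcription factors of the embryo, such as Zic1, Sox21, Gata4, Wt1, Evx2, Barx1, Ebf2, Foxd3 and Olig3.

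The chr9:91251589-91264890 cluster, over Zic1 and Zic4, had 12 WT peaks with pileups of 9 to 13 and 0 KO peaks. The chr14:118623826-118643807 cluster, over Sox21, had 11 WT peaks with pileups of 9 to 22, a highest −log10 q of 14.8 and 0 KO peaks. Over the 30 clusters a KO peak lay inside 3, or 10.0% (3.46% to 25.6%), which could not be distinguished from the 13.3% of all clusters at that background. These WT peaks had a median pileup of 10, close to the lowest of 9 in the list.

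Most single-copy clusters were not GC-rich: the 163 at 1 copy had a median GC content of 39.0%, against 38.7% over all clusters. The chr7:150400003-150420515 cluster, inside Kcnq1, a potassium channel gene of an imprinted domain, had 16 WT peaks with pileups of 9 to 13, 0 KO peaks and a GC content of 35.3%. By contrast, the chr10:57686427-57702478 cluster over the Dux array, which encodes a homeobox transcription factor of the early embryo, had 19 WT and 6 KO peaks at a median of 3 copies. Its WT pileups ran from 21 to 45 and its KO pileups from 21 to 40, with a WT background of 7.89. Both clusters were chosen after their values were seen.

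**Figure D5:**
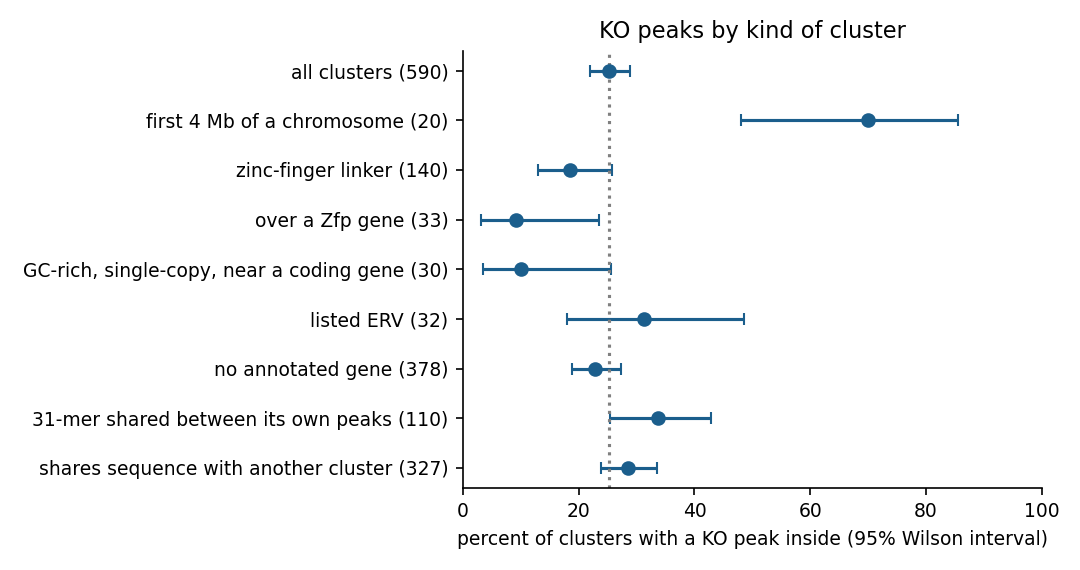
Percent of clusters with a KO peak inside, on the x axis with 95% Wilson intervals, for kinds of cluster that can overlap each other (number of clusters in parentheses). The dotted line marks the 25.3% of all clusters: those in the first 4 Mb of a chromosome lie highest at 70.0%, and those over a Zfp gene lowest at 9.09%.

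Most clusters overlapped no annotated gene. An annotated gene was overlapped by 212 of 590 (35.9%) and a protein-coding gene by 173, and a KO peak lay inside 22.8% (18.8% to 27.2%) of the 378 without a gene and 29.7% (24.0% to 36.2%) of those with one. Exons were overlapped by 8.03% (7.18% to 8.96%) of clustered WT peaks, against 1.61% (1.44% to 1.80%) of other WT peaks. In the compact cluster chr8:56199150-56209035, which had the most peaks of any under 10 kb, 11 WT and 7 KO peaks lay outside any gene, and a KO peak lay over 6 of the WT peaks.

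Chaining the KO list by the same rule gave 66 KO clusters, of which 52 overlapped a WT cluster and 14 did not. Of those 14, 8 lay together on chromosome 5 between 14907525 and 15186143. The WT list was not empty there: the chromosome 5 window starting at 15000001, which holds 4 of those 8, had 5 WT clusters with 45 WT peaks and 29 KO peaks, and their background had a median of 10.1.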

How the data were processed

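H3K9me3 peaks of Setdb1 cKO iMEFs, untreated (WT) and day 7 after 4OHT (KO), were analysed, with 1 library per group. The other 5 samples of the series, forebrain H3K9me3 and input libraries, entered no comparison. Per the submitters' processing notes and methods, single-end reads were mapped to mm9 with Bowtie2 2.2.3, multi-hit reads were placed at a randomly selected valid site, duplicates were removed with Picard, and peaks were called with MACS2. Per the file headers the caller was MACS 2.1.0.20140616. The deposited lists give for each peak the pileup (a signal, the coverage at the peak), the fold enrichment (a ratio to the local background, as the authors' caller computed it) and the deposited −log10 p and −log10 q. The caller's thresholds and the input used are not given in the sources used here, and the read depth of each library is not in the lists. Peaks called separately in each library also differ with depth.

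Peaks were chained with Python 3.11, pandas 2.3.3 and numpy 2.4.6 at a gap of at most 5000 bp, and chains of at least 4 peaks on chromosomes 1 to 19 were kept. A KO peak counted as inside when it lay wholly within a span, and a WT peak as overlapped when at least 1 of its bases lay under a KO peak. Positions are as deposited, with a possible offset of 1 bp. Copy number was the median, over a peak's 31-base stretches, of their number on both strands of mm9 (chromosomes 1 to 19, X and Y). Genes were taken from GENCODE M1 (NCBIM37, the same assembly as mm9), and ERV positions, but no values, from the study's lists. Intervals are Wilson 95% intervals (statsmodels 0.14.6) and cover counting error only. Chaining and counting were tested on simulated lists, in which 570 of 570 planted chains were recovered.

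The named clusters are the 10 with the most WT peaks, the 5 with the most KO peaks inside, the longest, the highest-scoring, and the one with the most peaks under 10 kb. Coding genes over them, Sp100, Sp110 and Sp140 and the listed gene and ERV families were counted by the same rule. Other clusters and genes are marked as chosen after their values were seen, as was the zinc-finger linker search. The members and lists were chosen with earlier results of these data known. Other gaps, chain sizes, score, height and overlap cuts were tried as alternatives.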

Additional observations from a re-analysis of the deposited data

Results flagged for a closer look

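Clusters by the same rule were also present on the sex chromosomes, which the counts above leave out. There were 10 such clusters, all on chromosome X and 0 on chromosome Y, and they held 133 of 1229 WT peaks on these chromosomes (10.8%). They came up because chromosomes X and Y are data outside the main count. The largest had 53 WT peaks, more than any autosomal cluster, and 46 KO peaks lay inside 4 of the 10.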

How the results depend on the processing

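Of 39 values under other settings, 14 stayed within the bounds set by counting error or by 1.5 times a count, and 25 moved. The number of clusters fell to 193 at 6 or more peaks, 209 at a −log10 q of at least 3 and 273 at a pileup of at least 10, settings that remove peaks or clusters by construction. The share of WT peaks in clusters was 12.7% at a gap of 2500 bp, 21.7% at 10000 bp, 8.64% at 6 or more peaks, 12.2% at the q cut, 15.6% at the pileup cut and 13.8% with local background of at most 3, an alternative chosen after seeing the data. The share of clusters with a KO peak was 43.5% at 6 or more peaks, 35.4% at the q cut, 38.5% at the pileup cut and 19% at the background limit. The share of clustered WT peaks overlapped was 7.52% at a gap of 10000 bp, 13.9% at 6 or more peaks, 13.6% at the q cut, 14.8% at the pileup cut, 5.03% at an overlap of at least 50%, 20.5% within 1000 bp and 2.92% at the background limit. KO peaks per 100 WT peaks were 13.8 at a gap of 2500 bp, 25.3 at 6 or more peaks, 22.3 at the q cut, 26.6 at the pileup cut and 6.52 at the background limit. Beyond the removal of peaks, the cause was not tested.

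No paired analysis was possible because WT and KO are 1 library each, and no replicate was there to leave out. The absence of a KO peak means that none was called, not that the mark was absent, and differences in read depth between the 2 libraries cannot be told apart from the treatment. The study's methods give a narrow range of read numbers over the iMEF libraries, but none for each library.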
